A study of Mus musculus with 47 samples.

Results

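The 10 genes described here encode parts of the machinery of T lymphocytes and natural killer (NK) cells: Cd3d, Cd3e, Cd3g, Lck, Rasgrp1, Gzma, Gzmb, Prf1, Nkg7 and Ctsw. They were taken by gene symbol from the 20456 genes of a table of read counts for liver, lung and brain of mouse embryos at E18.5. The 47 libraries form 12 groups. In each tissue, Daxx S226A homozygous embryos were compared with the wild-type embryos of their litters and Daxx Y130A homozygous embryos with the wild-type embryos of theirs, and every group held 4 libraries except the wild-type lungs of Y130A litters, with 3. The study removed another wild-type lung of the Y130A litters as an outlier. The labels give the strain of all embryos as C57BL/6. Both alleles were knock-in point mutations of the endogenous Daxx gene, carried by every cell of the embryo, which the study made with CRISPR/Cas9 in C57BL/6N zygotes and then crossed to C57BL/6J mice. Daxx is a chaperone for the histone variant H3.3 that works with the chromatin remodeler Atrx. The S226A substitution was made by the study to break the contact of Daxx with H3.3 and the Y130A substitution to break its contact with Atrx, so that the comparisons ask which of these contacts affects gene expression before birth. The study also found less Daxx protein with S226A and more with Y130A, in embryonic fibroblasts and E18.5 lung. A lost contact and a changed protein level therefore cannot be told apart here. The libraries came from 17 embryos of 8 litters and were made from whole tissue, not from sorted cells.

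T cells recognise antigen through a receptor that signals through the CD3 chains, of which Cd3d, Cd3e and Cd3g encode the delta, epsilon and gamma chains. The kinase Lck phosphorylates these chains, and Rasgrp1 passes the signal on by activating Ras. Cytotoxic T cells and NK cells kill by releasing granules in which perforin (Prf1) opens the way into the target for the granzymes (Gzma, Gzmb), while Nkg7 is a granule membrane protein and Ctsw (cathepsin W) is a cysteine protease of these cells. Before birth, T cells mature in the thymus, and the fetal liver is the main site of blood formation. Lck and Rasgrp1 are not confined to lymphocytes, since both are also transcribed in neurons.

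Libraries of S226A litters held 15722147 to 26190403 counts each, with a median of 20341531, and those of Y130A litters were deeper, at 36351738 to 54885020 with a median of 44523912. Transcripts of each tissue were where the labels place them: the summed level of 4 hepatocyte genes was at least 99940 CPM (counts scaled to a common library size, with TMM factors) in every liver and at most 940 CPM elsewhere, that of 4 lung epithelium genes at least 6279 CPM in every lung and at most 19.4 CPM elsewhere, and that of 4 neuronal genes at least 2865 CPM in every brain and at most 20.5 CPM elsewhere. Daxx RNA, which the point mutations leave in place, had group means of 29.2 to 42.5 CPM and log2 fold changes of -0.12 to 0.04 in the 6 comparisons (lowest adjusted p = 0.857, edgeR), so it does not check the genotype labels. Of the livers, 2 held transcripts of squamous epithelium, with 11854 Krt4 counts in Y130A replicate 1 and 8265 in wild-type replicate 2 of the S226A litters, against at most 161 in the other livers. Of the 15 lungs, S226A replicate 3 had the highest summed level of 10 genes of thymocytes, immature T cells, at 71.8 CPM. This list is not specific to thymocytes, since its sum was 139 to 245 CPM in brains and 55.8 to 123 CPM in livers, so it is compared among lungs only and beside the counts of single genes such as Rag1. Values without these libraries are given beside several of the results they touch.

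The 3 CD3 genes lie together on chromosome 9 (GRCm38). Cd3g (chr9:44969572-44980431, minus strand) and Cd3d (chr9:44981786-44987339, plus strand) are transcribed away from each other from starts 1355 bases apart, and Cd3e (chr9:44998740-45009627, minus strand) closes a cluster of 40056 bases. The other members are on separate chromosomes: Rasgrp1 at chr2:117279993-117343001 (minus), Lck at chr4:129548344-129573641 (minus), Nkg7 at chr7:43437073-43438249 (plus), Prf1 at chr10:61297833-61304680 (plus), Gzma at chr13:113093825-113100981 (minus), Gzmb at chr14:56258838-56262260 (minus) and Ctsw at chr19:5465043-5468507 (minus). The last bases of Ctsw overlap the last bases of Fibp, which is transcribed from the other strand and ends at 5465051. Whether counting used strand is not given in the sources used here, so reads in that overlap cannot be assigned to 1 gene. None of the other members overlaps another gene of the table.

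The promoters of Prf1 and Rasgrp1 are shown because these genes were called in S226A liver, and those of Gzma, Gzmb and Nkg7, which were not called for either mutation, for comparison within the granule genes. RefSeq windows (GRCm38.p6) of 250 bases before the RefSeq start were found for 9 of the 10 members, all but Ctsw, with 10 windows since Lck has 2. RefSeq starts can differ from the gene positions given above, so that the windows of Rasgrp1 and Nkg7, for example, reach into the genes as placed there. Capitals mark TGTGGT on either strand (ACCACA on the strand shown), a core sequence of RUNX factors, which regulate genes of T and NK cells.
Prf1, chr10:61297586-61297835, plus strand: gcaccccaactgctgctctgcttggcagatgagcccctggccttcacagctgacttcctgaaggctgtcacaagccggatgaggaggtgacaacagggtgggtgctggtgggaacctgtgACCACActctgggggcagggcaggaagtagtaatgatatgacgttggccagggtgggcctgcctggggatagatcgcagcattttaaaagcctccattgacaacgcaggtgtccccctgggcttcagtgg
Gzma, chr13:113100982-113101231, minus strand: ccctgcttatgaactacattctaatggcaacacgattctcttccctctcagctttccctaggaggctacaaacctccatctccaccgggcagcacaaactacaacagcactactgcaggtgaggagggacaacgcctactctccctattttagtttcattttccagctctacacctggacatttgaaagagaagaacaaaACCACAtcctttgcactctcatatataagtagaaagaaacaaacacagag
Gzmb, chr14:56262335-56262584, minus strand: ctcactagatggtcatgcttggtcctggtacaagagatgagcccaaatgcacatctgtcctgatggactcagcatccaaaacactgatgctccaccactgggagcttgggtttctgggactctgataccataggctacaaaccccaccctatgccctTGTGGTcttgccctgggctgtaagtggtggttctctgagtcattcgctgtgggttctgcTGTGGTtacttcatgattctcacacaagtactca
Nkg7, chr7:43436888-43437137, plus strand: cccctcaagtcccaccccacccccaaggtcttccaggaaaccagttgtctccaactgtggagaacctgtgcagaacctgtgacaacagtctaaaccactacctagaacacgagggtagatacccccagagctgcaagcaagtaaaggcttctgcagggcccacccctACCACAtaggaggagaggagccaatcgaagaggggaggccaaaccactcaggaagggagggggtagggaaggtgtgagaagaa
Rasgrp1, chr2:117342878-117343127, minus strand: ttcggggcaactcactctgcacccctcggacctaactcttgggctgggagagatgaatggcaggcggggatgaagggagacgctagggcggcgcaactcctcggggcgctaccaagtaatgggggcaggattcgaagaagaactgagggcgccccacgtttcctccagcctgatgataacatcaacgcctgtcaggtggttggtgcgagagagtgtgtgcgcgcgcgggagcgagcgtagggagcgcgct
TGTGGT was found in all 4 granule genes, with 2 places in Gzmb and 1 in each of Prf1, Gzma and Nkg7, and in 1 of the Lck windows. It was in no window of Cd3d, Cd3e, Cd3g or Rasgrp1. Of 32851 mouse promoter windows of the same length, 4614 hold it. TGANTCA, the AP-1 sequence, was found in 1 member, Gzmb, and is in 6.7% of all windows. The exact sequence TATAAA, a form of the TATA box, was in no window of the members and is in 12.4% of all windows. Other forms of the TATA box were not searched. These matches describe the letters of the windows and were not related to binding.

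In counts, the members were low. Of the 470 values (10 genes in 47 libraries), 135 were 0, and only Lck and Rasgrp1 had counts in every library. Cd3e was at 0 in 29 libraries, Prf1 in 26, Cd3d in 21, Nkg7 in 18, Gzmb in 13, Cd3g in 12, Gzma in 10 and Ctsw in 6. In 16 of 120 combinations of gene and group, a library at 0 stood beside a replicate with at least 10 counts, 4 of them for Cd3d and 4 for Prf1. How duplicate reads were handled is not given in the sources used here and the complexity of the libraries was not tested, which limits what differences between a group at or near 0 and a group with few reads, such as those of Prf1, Ctsw and Cd3d, can show. All 10 members nevertheless passed the filter on low counts, which kept 16892 genes. The plot of the members by group shows these levels.

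**Figure D1:**
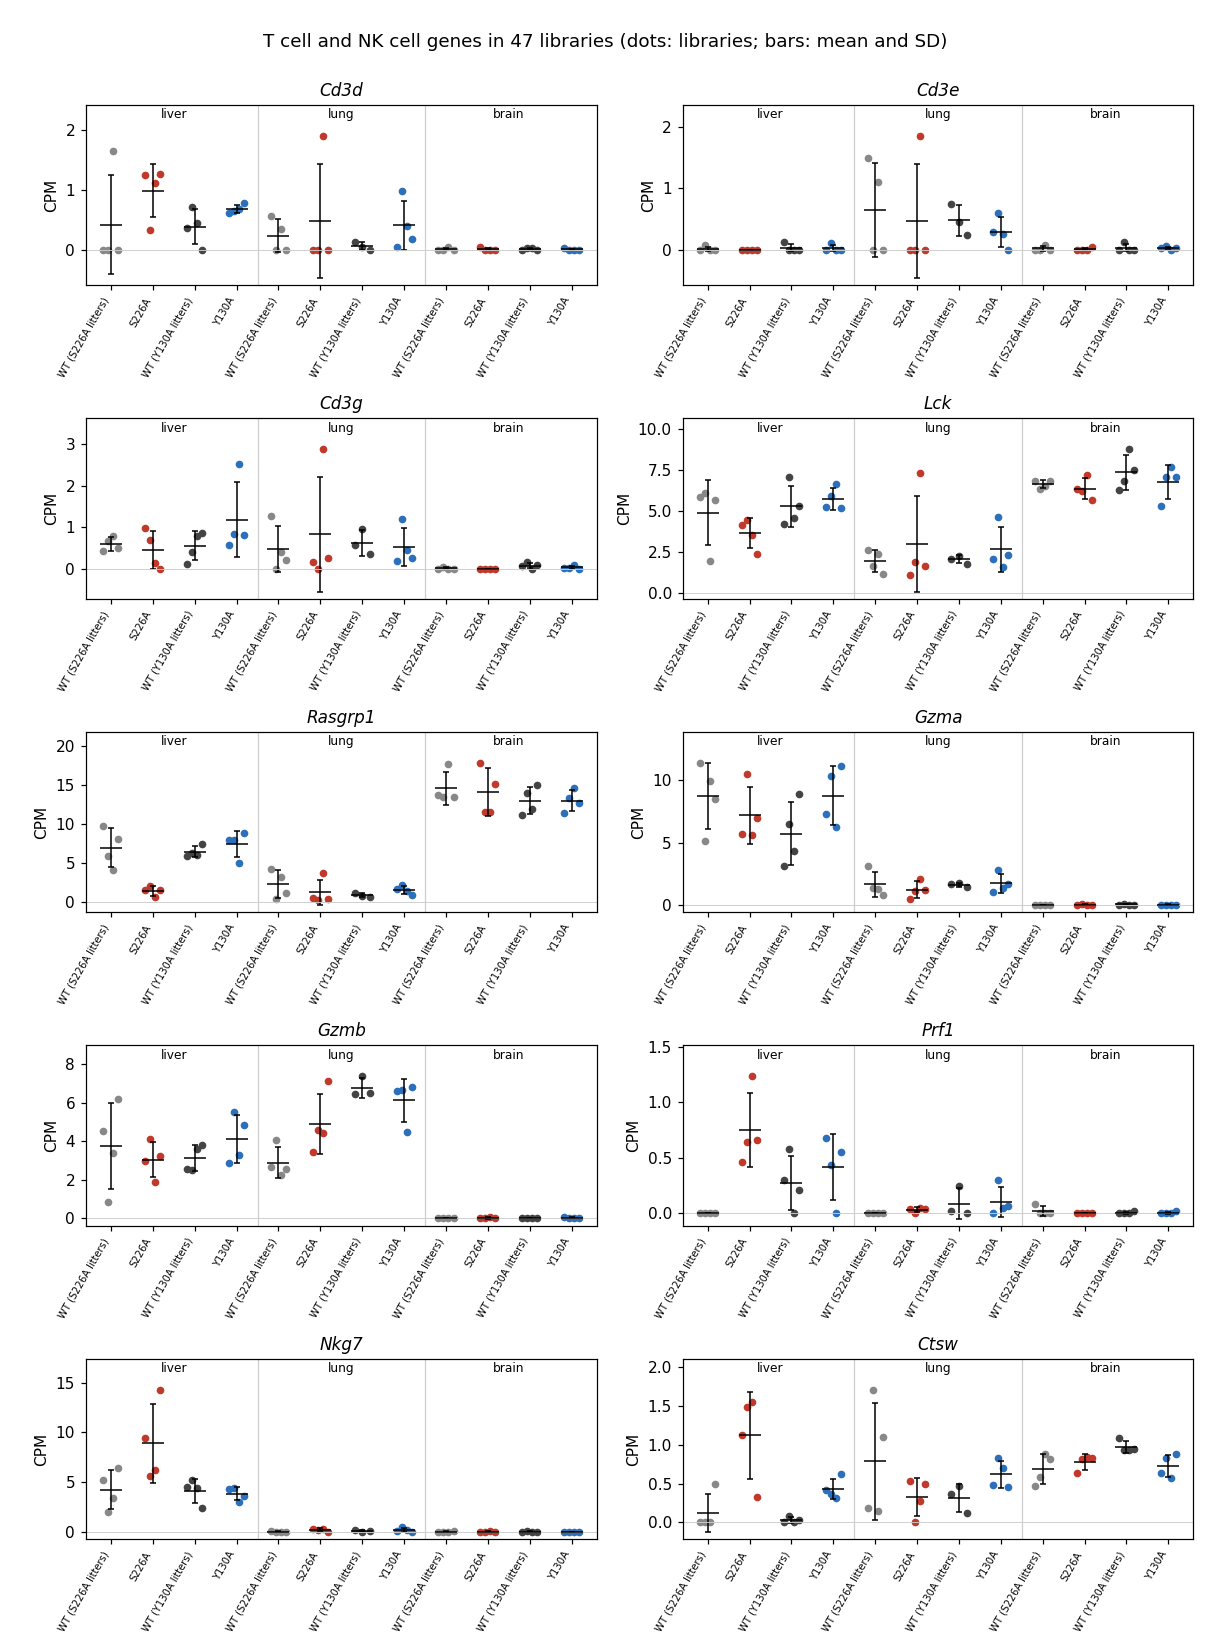
Level of each member (y axis, CPM on a linear scale) in each of the 47 libraries by tissue, genotype and litter set (x axis), with 1 dot per library and bars for the mean and SD of the 3 or 4 libraries. Rasgrp1 sits lower in S226A liver than in the 3 other liver groups, Gzma, Gzmb and Nkg7 are near 0 in brain, and 1 S226A lung stands above the others for the CD3 genes and Lck.

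The members divided the wild-type tissues into different profiles. Per kilobase of exon, the highest levels in the 8 wild-type livers were those of granule genes: 7.19 ± 2.89 CPM per kb for Gzma (SD, n = 8), 4.57 ± 1.64 for Nkg7 and 2.39 ± 1.09 for Gzmb. Lck (1.74 ± 0.531) and Rasgrp1 (1.20 ± 0.306) followed, each separated from its neighbour by no more than their SDs together. Cd3d (0.219 ± 0.317), Cd3g (0.174 ± 0.078), Prf1 (0.053 ± 0.0836), Ctsw (0.0401 ± 0.0901) and Cd3e (0.00573 ± 0.0112) were all lower, and neighbours among them were likewise within their spread.

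In the 7 wild-type lungs the order was led by Gzmb at 3.17 ± 1.51 CPM per kb (SD, n = 7), then Gzma at 1.62 ± 0.709, with ranges of the 2 that overlap. Lck was at 0.676 ± 0.171, Ctsw at 0.310 ± 0.317 and Rasgrp1 at 0.302 ± 0.264, while Cd3g (0.164 ± 0.134), Cd3e (0.141 ± 0.140) and Cd3d (0.0852 ± 0.121) did not differ beyond their spread. Nkg7 (0.0434 ± 0.069) and Prf1 (0.0147 ± 0.0354) had the lowest means, within the spread of Cd3d. In the Y130A litters alone, Cd3d (0.031 ± 0.036, SD, n = 3) lay below Nkg7 (0.0842 ± 0.0946).

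In the 8 wild-type brains Rasgrp1 (2.47 ± 0.355 CPM per kb, SD, n = 8) and Lck (2.39 ± 0.279) were at the same level within their spread, Ctsw was at 0.439 ± 0.109, and each of the 7 other members was at or under 0.0172 CPM per kb on average. Over all 16 brains, Lck had 137 to 493 counts and Rasgrp1 278 to 822, while Cd3d had 0 or 1, Cd3e 0 to 7 and Cd3g 0 to 9. Thus the brains held transcripts of both signalling genes with the receptor chains at or near 0, and the summed level of the neuronal genes given above was high in the same libraries.

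Differences between wild-type tissues were tested in a separate fit of the 23 wild-type libraries with litter as a block, in which 9 members could be tested. The share of all genes called was large, 78.1% between lung and liver, 82.6% between lung and brain and 86.6% between liver and brain. Between lung and liver 6 of 9 members were called. Cd3e (log2 fold change 3.98 ± 1.19 SE) and Ctsw (3.11 ± 0.79) were higher in lung, and Gzma (-2.06 ± 0.37), Lck (-1.33 ± 0.23), Nkg7 (-6.62 ± 0.71) and Rasgrp1 (-2.22 ± 0.32) were lower. Cd3e was at 0 in 2 of the 7 wild-type lungs, those with 0 and 6 counts of the thymocyte gene Rag1. The other wild-type lungs had 39 to 448 Rag1 counts, and the part of thymic cells in the Cd3e differences was not tested. Between lung and brain 7 of 9 were called, with Cd3d, Cd3e, Cd3g, Gzma and Gzmb higher in lung and Lck and Rasgrp1 lower. Between liver and brain 8 of 9 were called, with Cd3d, Cd3g, Gzma, Gzmb and Nkg7 higher in liver and Ctsw (-4.26 ± 0.77), Lck (-0.48 ± 0.21) and Rasgrp1 (-1.05 ± 0.27) lower. These shares of members lie near those of all genes. The calls of Cd3d between lung and brain (adjusted p = 0.0398) and of Lck between liver and brain (adjusted p = 0.0366) were lost when any 1 of 7 and any 1 of 9 of the wild-type libraries, respectively, was left out, and that of Cd3d also with DESeq2 (adjusted p = 0.0772) and with no filter on low counts (adjusted p = 0.0681).

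In the S226A liver, 3 of the 10 members were called: Rasgrp1 was lower, and Prf1 and Ctsw were higher. Over all genes tested, 11.7% were called in this comparison, 6.14% higher and 5.54% lower. The CD3 chains, Lck, both granzymes and Nkg7 did not pass the test.

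Rasgrp1 had 159, 91, 57 and 133 counts in the wild-type livers (replicates 1 to 4) and 24, 44, 10 and 23 counts in the S226A livers of the same litters. All 4 S226A livers lay below all 4 wild-type livers, and the mutant was lower within each of the 4 litters, by 6.18-, 2.94-, 6.62- and 5.34-fold. In CPM the means were 1.44 ± 0.592 in S226A against 7.00 ± 2.48 in wild type (SD, n = 4 each). The log2 fold change was -2.27 ± 0.48 SE, a 4.81-fold lower level (adjusted p = 0.000781, edgeR). The difference was called in all 14 refits (another tool, scaling, filter or set of libraries, including each library left out in turn, or litter as a block), with adjusted p from 1.6e-05 to 0.00694, and with both edgeR and DESeq2 it also met the stringent criteria of the study, which ask for an adjusted p below 0.01, a log2 fold change beyond 1 and a standard error below 1. In whole tissue, fewer cells that express a gene and less RNA of it per cell cannot be told apart.

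Prf1 had no read in any of the 4 wild-type livers of these litters and 7, 14, 20 and 10 counts in the 4 S226A livers. The groups did not overlap, although every value was low. The S226A mean was 0.752 ± 0.336 CPM (SD, n = 4), and against a floor of 3 counts per wild-type library it was at least 3.85-fold higher (adjusted p = 0.00762, edgeR). The difference was called in 13 of 13 refits in which Prf1 could be tested, but it did not meet the stringent criteria, since its standard error on the log2 scale was 1.93 with edgeR and 1.84 with DESeq2. It did not reach the filter when only the 8 libraries were fitted. In wild-type livers of the Y130A litters, sequenced more deeply, Prf1 had 22, 0, 6 and 10 counts, so that wild-type livers with Prf1 reads do exist in this series.

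Ctsw had 0, 0, 0 and 8 counts in the wild-type livers and 17, 32, 25 and 5 in the S226A livers. In 3 litters the mutant alone had reads, and in the remaining litter the wild-type liver had more, so the groups overlapped by 1 library on each side. The means were 1.12 ± 0.557 CPM in S226A and 0.123 ± 0.245 CPM in wild type (SD, n = 4 each), with a log2 fold change of 3.11 ± 0.84 SE (adjusted p = 0.0103, edgeR). The size of this difference depends on wild-type replicate 4, which held all wild-type reads: without it the wild-type group was at 0 and the fitted log2 fold change, which is then no bound, was 8.21 (adjusted p = 0.000154). The call held in 13 of 13 refits in which Ctsw could be tested, with adjusted p up to 0.041. It met the stringent criteria with DESeq2, the tool of the study (log2 fold change 3.13 ± 0.78 SE, adjusted p = 0.00115), but not with edgeR, where its adjusted p lay just above their limit. Fibp, which shares bases with Ctsw, was at 22.1 CPM in S226A and 20.2 CPM in wild type (log2 fold change 0.13, adjusted p = 0.371). The other tested neighbours, Ccdc85b, Efemp2 and Mus81, did not pass the test either, and Cfl1, 21948 bases away, had a log2 fold change of 0.28 (adjusted p = 0.0191).

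**Figure D2:**
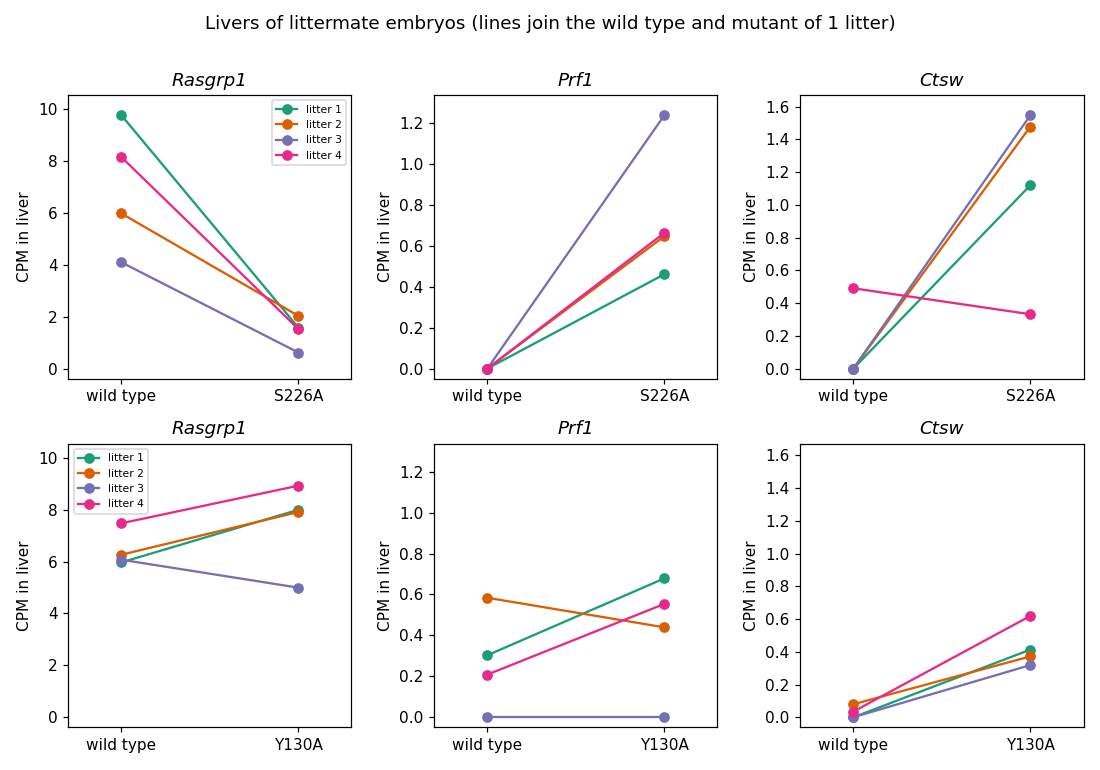
Level (y axis, CPM) of Rasgrp1, Prf1 and Ctsw in the livers of S226A litters (upper row) and Y130A litters (lower row), with each line joining the wild-type and the mutant liver of 1 litter. Rasgrp1 falls in all 4 S226A litters and stays within 5.00 to 8.93 CPM in the Y130A livers, Prf1 is at 0 in the wild-type livers of the S226A litters, and Ctsw is higher in the mutant in 3 of 4 S226A and 4 of 4 Y130A litters.

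Among the members that did not pass the test in S226A liver, Nkg7 had 85, 30, 48 and 104 counts in wild type and 144, 121, 101 and 216 in S226A. It was higher in the mutant of each of the 4 litters, but by CPM the lowest S226A liver lay under the highest wild-type liver, and the log2 fold change was 1.06 ± 0.56 SE (adjusted p = 0.242, range over 14 refits 0.0972 to 0.532). Gzma (log2 fold change -0.28 ± 0.41) and Gzmb (-0.30 ± 0.40) were each lower in 3 of 4 litters and higher in the remaining one, that of the wild-type liver with squamous transcripts. Lck was at 3.64 ± 0.921 CPM in S226A and 4.90 ± 1.98 CPM in wild type (SD, n = 4), a log2 fold change of -0.43 ± 0.37.

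Without both livers with squamous transcripts the same 3 members were called in S226A liver, Rasgrp1 at -2.33 (adjusted p = 0.00131), Ctsw at 2.71 (adjusted p = 0.0378) and Prf1 (adjusted p = 0.0201). Gzmb then had a log2 fold change of -0.62, Gzma of -0.47, Nkg7 of 0.82 and Cd3d of 0.87, none of them called. In Y130A liver no member was called without them either, and Ctsw was at 3.68 (adjusted p = 0.0672) and Prf1 at 0.25. Cd3e, near 0 reads in all livers, is given by its counts.

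The CD3 chains in liver rested on few reads. Cd3d had 0, 0, 23 and 0 counts in wild type against 19, 7, 18 and 19 in S226A (log2 fold change 1.28 ± 1.21, adjusted p = 0.573). All wild-type reads of Cd3d came from replicate 3, and when this library was left out Cd3d was called (adjusted p = 0.0256), so this 1 library decides the call. Cd3g had 7, 10, 11 and 8 counts against 15, 15, 2 and 0, and Cd3e had 1 count in the 8 livers together. The receptor chains therefore gave no common direction in S226A liver, and the median log2 fold change of the 10 members was -0.29 beside -0.01 over all genes tested.

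**Figure D3:**
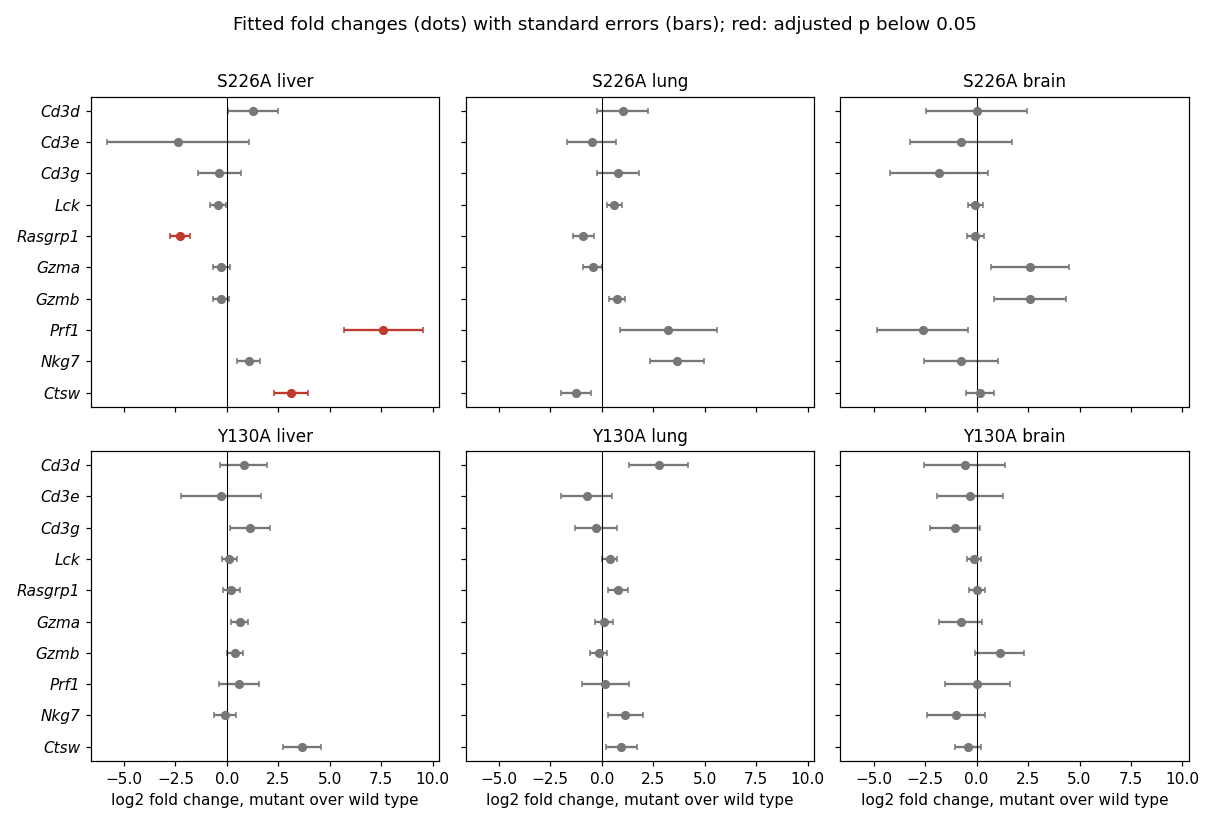
Fitted log2 fold change of each member, mutant over wild type (x axis), in the 6 comparisons (panels), with bars for the standard error and red for an adjusted p below 0.05 (edgeR). Only Rasgrp1 (-2.27), Prf1 (a fitted value that depends on a wild-type group at 0) and Ctsw (3.11) are red, all in S226A liver, and genes near 0 counts have wide bars.

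Genes of the same pathways were counted next to the members. Of 20 other genes of T cell receptor signalling and T cell identity, 1 was lower in S226A liver and none was higher (list median 0.17). This was Il7r, the interleukin 7 receptor that both T and B precursors use, at 5.57 ± 2.16 CPM against 14.3 ± 2.32 (adjusted p = 0.00291). None of 9 thymocyte genes tested and none of 13 genes of NK and innate lymphoid cells passed the test in either direction. The summed level of the NK and innate lymphoid list was 32.0 to 42.8 CPM in S226A and 37.8 to 65.6 CPM in wild-type liver, ranges that overlap.

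For the granule genes, 6 of 10 genes of the shared machinery that loads, moves and releases such granules were higher in S226A liver and none was lower (list median 0.46). The most significant were Rab27a, which docks granules (log2 fold change 1.10 ± 0.11), Lyst, which sets the size of lysosome-related granules (0.72 ± 0.07), and Stxbp2, which acts in their fusion (0.40 ± 0.07). These genes also serve the granules of neutrophils and mast cells. In the same livers 8 of 8 neutrophil genes were higher, with Prtn3 up 1.37 ± 0.17, Camp 1.37 ± 0.20 and S100a9 1.46 ± 0.23 on the log2 scale, and their sum was 8794 to 9446 CPM in S226A against 3025 to 3602 CPM in wild type. The part of neutrophils in the levels of Prf1, Ctsw and the granule machinery was not tested. Of the other granzymes, 4 of 6 were at 0 in every S226A liver and 4 of 6 in every wild-type liver of these litters, and only 1 could be tested, which was not called.

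Of the 3 other Ras activators of the Rasgrp1 family, 1 was higher in S226A liver and none was lower: Rasgrp4, a gene of mast cells and myeloid cells, was higher (log2 fold change 1.38 ± 0.22, adjusted p = 1.04e-05), and Rasgrp2 and Rasgrp3 were not called. Of the 7 other kinases of the Src family to which Lck belongs, Fgr, of myeloid cells, was higher, at 47.2 ± 1.16 CPM against 19.1 ± 3.93 CPM, and Fyn (log2 fold change -0.37 ± 0.08) and the B lineage kinase Blk (-2.35 ± 0.68) were lower. Of 9 other cysteine cathepsins 1 was higher and 3 were lower, among them Ctss (-1.04 ± 0.17), Ctsf (-0.44 ± 0.11) and Ctsb (-0.24 ± 0.06).

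Markers of other blood cells moved in the same livers as Rasgrp1. Of 8 genes of the B lineage 4 were lower, led by Ebf1 (log2 fold change -0.87 ± 0.17), Pax5 (-1.05 ± 0.27) and Cd79b (-1.09 ± 0.28), and the summed level of the list was 53.2 to 124 CPM in S226A against 144 to 173 CPM in wild type. All 8 macrophage genes were lower, with Csf1r (-1.61 ± 0.07), C1qa (-3.26 ± 0.15) and Clec4f (-8.42 ± 0.39) the most significant, at sums of 223 to 291 CPM against 834 to 976 CPM. All 6 genes shared by blood cells were higher, led by Coro1a (1.18 ± 0.09), and 1 of 7 tested mast cell and basophil genes was higher, Hdc (0.88 ± 0.20). None of the megakaryocyte, erythroid or hepatocyte genes was called in liver. The part of these cells in the Rasgrp1 difference was not tested.

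In the Y130A liver none of the 10 members was called by edgeR, against 0.272% of all genes, 1 had an unadjusted p under 0.05, and DESeq2 called 1. That member was Ctsw, with 14, 11, 9 and 19 counts in Y130A replicates 1 to 4 and 3, 0, 1 and 0 counts in wild-type replicates 1 to 4 of these litters, whose numbers do not follow the litters. All 4 mutants lay above all 4 wild types, at 0.431 ± 0.131 CPM against 0.0286 ± 0.0378 CPM (SD, n = 4), and the log2 fold change was 3.66 ± 0.92 SE. Its adjusted p was 0.0701 with edgeR and 0.00736 with DESeq2 (3.83 ± 0.94 SE), which also met the stringent criteria, and 0.0459 without wild-type replicate 1, with a range over 15 refits of 0.00736 to 0.735. Fibp had a log2 fold change of -0.18 there (adjusted p = 0.496).

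Rasgrp1 had 271, 234, 141 and 274 counts in Y130A livers and 236, 175, 215 and 197 in the wild-type livers of these litters, which overlap throughout (log2 fold change 0.21 ± 0.41, adjusted p = 0.977). Prf1 had 23, 13, 0 and 17 counts in Y130A and 22, 0, 6 and 10 in wild type (0.59 ± 0.96). Gzma was higher in the mutant of 4 of 4 litters at 8.77 ± 2.38 CPM against 5.72 ± 2.53 CPM, but the groups overlapped (0.62 ± 0.41, adjusted p = 0.754). Cd3g had 71 counts in Y130A replicate 3 and 4 to 25 in the 7 other livers of these litters.

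The difference between the effects of both mutations in liver was tested directly. For Rasgrp1 the S226A effect was lower than the Y130A effect by 2.48 ± 0.63 SE on the log2 scale, a value of -2.48 (adjusted p = 0.0108). It was called in all 22 refits and met the stringent criteria with DESeq2 (-2.51 ± 0.63 SE, adjusted p = 0.00215) but not with edgeR, and 5.9% of all genes were called. Rasgrp1 was the only member called. For Prf1 the adjusted p was 0.0717, and of 22 refits it passed in 1, in which wild-type replicate 2 from the Y130A litters was left out (adjusted p = 0.0433). For Ctsw, which was higher in both mutants, the effects differed by -0.55 ± 1.13 SE (adjusted p = 0.899), an interval too wide to show whether they are alike.

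In the wild-type livers, the S226A litters and the Y130A litters differed in 13.1% of all genes and in 1 of 10 members, Prf1, with 0 counts in all 4 livers of the S226A litters and 22, 0, 6 and 10 in those of the Y130A litters (adjusted p = 0.0448). This call was lost in 11 of 13 refits, among them thinning of the Y130A litters to the depth of the others, where the fitted log2 fold change was -5.22 (adjusted p = 0.0872) against -6.20 in the full counts. Both values rest on a group at 0 and are no bound.

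In the S226A lung none of the 10 members was called by edgeR, against 1.88% of all genes, and 1 had an unadjusted p under 0.05. DESeq2 called none either, but it gave no adjusted p for Cd3e and Prf1. Rasgrp1 had 92, 9, 64 and 22 counts in wild type and 13, 7, 79 and 11 in S226A, so that 3 mutant lungs were low and replicate 3 was as high as the higher wild types. Its log2 fold change was -0.89 ± 0.49 SE (adjusted p = 0.369). Single libraries moved this value both ways. It was -2.36 and called without S226A replicate 3 (adjusted p = 0.00457), and -0.37 without wild-type replicate 1 (adjusted p = 0.758), the lung with the most Rasgrp1 reads in the S226A litters and the second highest thymocyte level of all lungs. Nkg7 had 1, 0, 0 and 0 counts in wild type and 7, 4, 7 and 0 in S226A (log2 fold change 3.65 ± 1.32, adjusted p = 0.141), close to the floor of 3 counts. Gzmb was higher in the mutant of 4 of 4 litters, at 4.89 ± 1.56 CPM against 2.89 ± 0.793 CPM (0.76 ± 0.39, adjusted p = 0.338), with overlapping groups. Without S226A replicate 3 Nkg7 and Gzmb were at 3.33 and 0.80, and Gzma was at -0.84 in place of -0.45, none of them called. Ctsw had 4, 38, 3 and 20 counts in wild type and 13, 0, 6 and 12 in S226A, higher in 2 litters and lower in 2 (-1.24 ± 0.72, adjusted p = 0.410).

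The receptor chains in lung were high in a few libraries of either genotype. Cd3d had 12, 0, 7 and 0 counts in the wild-type lungs of the S226A litters and 0, 0, 41 and 0 in the S226A lungs. Cd3e had 32, 0, 22 and 0 against 0, 0, 40 and 0, and Cd3g 27, 0, 8 and 4 against 4, 0, 62 and 6. In all 3 genes the same S226A lung, replicate 3, was highest, the other S226A lungs had at most 6 counts, and wild-type replicates 1 and 3 were the next in this litter set.

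Lck followed these libraries too, with 56, 36, 47 and 21 counts in wild type and 26, 41, 157 and 40 in S226A. The log2 fold changes of Cd3g (0.79 ± 1.00) and Lck (0.61 ± 0.38) turned to -1.73 and -0.33 without S226A replicate 3, and were 1.99 and 0.79 without wild-type replicate 1. Without S226A replicate 3 the remaining S226A lungs had no read of Cd3d or Cd3e, and neither gene was called (adjusted p = 0.149 and 0.0634). The S226A replicate 3 held 634 counts of Rag1, the recombinase of immature lymphocytes, 10 of Ptcra, 104 of Cd8a, 43 of Cd8b1 and 127 of Themis, all genes of thymocytes. It also held 13 counts of Foxn1 and 38 of Psmb11, which mark thymic epithelium, while the 3 other S226A lungs had none of either.

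Wild-type replicates 1 and 3 had 448 and 132 Rag1 counts, 2 and 3 Foxn1 counts and 3 and 1 Psmb11 counts, and wild-type replicates 2 and 4 had 0 and 6 Rag1 counts. Wild-type replicate 2, without Rag1 or CD3 reads, had 7 Psmb11 counts. Over the 15 lungs, the library with the highest summed CD3 level (6.66 CPM) also had the highest summed level of the 10 thymocyte genes (71.8 CPM), and the second (3.33 CPM) had the second (47.2 CPM). The 2 lungs without a CD3 read had 15.2 and 18.7 CPM of thymocyte genes. The part of thymic cells in the CD3, Lck and Rasgrp1 values was not tested. Of the T cell receptor list, 1 of 20 genes was called in S226A lung, the adaptor Lcp2, which was lower (5.62 ± 1.32 CPM against 9.80 ± 1.61, adjusted p = 0.00262), and of the thymocyte, thymic epithelium and NK lists none was called. Beside these, 4 of 8 neutrophil genes were higher and 2 of 8 B lineage genes were lower in S226A lung. Of 8 macrophage genes, Csf1r (log2 fold change -1.13 ± 0.07) and Adgre1 (-0.58 ± 0.16) were lower and Cd5l (1.96 ± 0.53) was higher. Of the 6 genes shared by blood cells, Laptm5 (-1.02 ± 0.10) and Coro1a (-0.56 ± 0.09) were lower, and of the cathepsins Ctss (-1.13 ± 0.17) was lower.

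**Figure D4:**
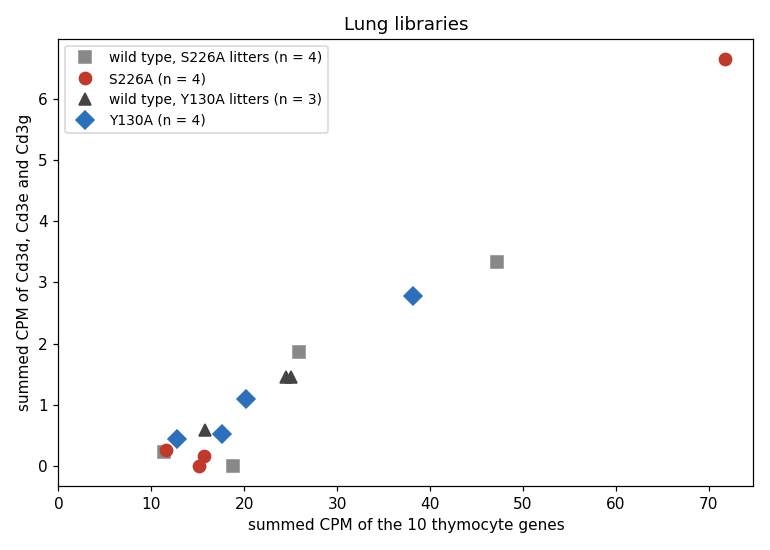
Summed level of Cd3d, Cd3e and Cd3g (y axis, CPM) against the summed level of 10 thymocyte genes (x axis, CPM) in the 15 lung libraries, with 1 point per library and a symbol for each group. The S226A lung at 71.8 and 6.66 CPM stands apart, the wild-type lung at 47.2 and 3.33 CPM is next, and the other S226A lungs lie at or under 0.248 CPM of CD3 transcripts.

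In the Y130A lung no member was called by edgeR or DESeq2, against 0.0178% of all genes, and none had an unadjusted p under 0.05. Cd3d had 3, 43, 17 and 8 counts in Y130A and 6, 2 and 0 in wild type (log2 fold change 2.77 ± 1.44), and Cd3e had 17, 26, 11 and 0 against 35, 22 and 12. The Y130A lung with 43 Cd3d counts, replicate 2, was also the one of its group with the most Rag1 (641 counts) and Foxn1 (9 counts). Rasgrp1 was higher in the mutant of 3 of 3 litters with both lungs, at 1.54 ± 0.527 CPM against 0.897 ± 0.250 CPM (0.78 ± 0.50), and Ctsw was higher in 3 of 3 as well (0.95 ± 0.74, adjusted p = 1), while its value in S226A lung was negative.

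Between the mutations, no member was called in lung by edgeR or DESeq2 (0.308% of all genes), Rasgrp1 and Ctsw had an unadjusted p under 0.05 (adjusted p = 0.404 and 0.484), and Rasgrp1 was called without S226A replicate 3 (adjusted p = 0.0106). Between the wild-type lungs of the litter sets, where 20.1% of all genes were called, Gzmb was lower in the S226A litters, with 57, 90, 45 and 47 counts or 2.89 ± 0.793 CPM (SD, n = 4) against 302, 363 and 322 counts or 6.77 ± 0.538 CPM (SD, n = 3) in the Y130A litters. The groups did not overlap, and the log2 fold change was -1.23 ± 0.41 SE (adjusted p = 0.0308). This call held in 5 of 11 refits. Rasgrp1, with 92, 9, 64 and 22 counts in the S226A litters and 55, 41 and 34 in the Y130A litters, had a log2 fold change of 1.35 ± 0.51 SE (adjusted p = 0.0572). It was called with DESeq2 (1.37, adjusted p = 0.0251) and without wild-type replicate 2 or 4 of the S226A litters (adjusted p = 0.00711 and 0.0433). Replicate 4 came from another embryo than the liver and brain of its litter. By its embryo number it appears to be the wild-type lung that the study called a possible outlier for transposable elements.

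In brain no member was called for either mutation by edgeR or DESeq2, against 0.243% of all genes in S226A and 0.00592% in Y130A, and none had an unadjusted p under 0.05. Rasgrp1 had 328, 325, 505 and 363 counts in wild type and 512, 296, 278 and 368 in S226A (log2 fold change -0.06 ± 0.40), and 605, 815, 672 and 767 in wild type against 579, 713, 822 and 626 in Y130A (0.00 ± 0.39). The groups overlapped in both sets, and the standard errors were smaller than for most members because the counts were high. Lck likewise had log2 fold changes of -0.06 ± 0.35 and -0.12 ± 0.34.

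Ctsw in brain had 59, 54, 52 and 48 counts in wild type and 32, 44, 32 and 43 in Y130A, and the groups did not overlap by CPM (0.971 ± 0.0796 against 0.725 ± 0.146, SD, n = 4). The direction was opposite to that in Y130A liver, but neither passed the edgeR test (-0.42 ± 0.65, adjusted p = 1). This error too rests on a spread shared with liver and lung. In S226A brain it had 18, 21, 20 and 20 counts against 11, 14, 25 and 22 (0.18 ± 0.68). No member was called by edgeR or DESeq2 between the mutations in brain (0.0829% of all genes) or between the wild-type brains of the litter sets (5.98%), and none had an unadjusted p under 0.05 in either. Between the wild-type brains DESeq2 gave no adjusted p for Cd3d, Cd3e, Cd3g, Prf1 and Ctsw.

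The genes whose levels moved most like each member were sought over all 47 libraries after removal of the group means, as a description without a test, since the libraries share tissue dissections and depth. For the receptor genes the leading genes were those of thymocytes: Themis (Pearson r = 0.93), Cd8b1 (0.92) and Rag1 (0.90) for Cd3e, Themis (0.82), Cd8b1 and Cd8a (0.76 each) for Cd3g, and Cd8a (0.72) and Cd6 (0.71) among those for Lck. Rasgrp1 was most like Cd3e (0.82), Themis (0.75) and Cd8b1 (0.74), and Cd3d was most like Ccr9 (0.78), P2ry10 (0.76) and Il21r (0.74). Without S226A lung replicate 3 these values were lower, at 0.86 to 0.88 for Cd3e, 0.57 to 0.67 for Cd3g, 0.51 and 0.53 for the named genes of Lck, 0.60 to 0.72 for Rasgrp1 and 0.63 to 0.69 for Cd3d.

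The granule genes and Ctsw had no such company. Gzma was most like Fmo4 (0.66), Il1a (0.64) and Gbp8 (0.63), Gzmb like Utp4 (0.67), 9130409I23Rik (0.62) and Lhx6 (0.61), and Prf1 like Tmem189 (0.69), Maff (0.69) and Ccng2 (0.68). Nkg7 was most like Lect2 (0.82), Thrsp (0.71) and Gm8225 (0.66), and Ctsw like Vps37c (0.72), Pus7l (0.65) and Mpp3 (0.65). Neither a granule gene nor Ctsw was among the 3 genes most like another of these members.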

How the data were processed

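Whole liver, lung and brain of embryos were profiled by RNA-seq in 47 libraries of 12 groups. The authors deposited raw counts per gene, made with Trim Galore 0.6.5, FastQC 0.11.5 and STAR 2.6.0b on GRCm38, per the labels and the study's methods. Positions came from GENCODE M21, which matched 20424 of 20456 genes. Counts were fitted with edgeR 4.0.16 in R 4.3.3 (TMM, filterByExpr with minimum count 10 and minimum total count 15, 1 coefficient per group over all libraries, quasi-likelihood test, Benjamini-Hochberg adjustment over 16892 genes). A gene was called at an adjusted p below 0.05. CPM are counts scaled by TMM library size, standard errors were derived from the log2 fold change and its F statistic (size of the change over the root of F), and folds against a group at 0 use a floor of 3 counts per library. Wild-type tissues were fitted with litter as a block (16561 genes). Likeness used log2(CPM + 1).

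The 10 members and the 19 gene lists (148 genes) were chosen with earlier results of these data known. Named genes were the members, at most 3 called genes per list by smallest adjusted p, the neighbours of Ctsw, the 3 genes most like each member (1 of them is not reported here), and Daxx. Krt4 and single thymus genes were named after their values were seen. Labels give litters: residuals of 18 of 23 littermate pairs correlated above 0.1, against 5 of 69 other pairs. Replicate libraries differed beyond sampling noise in all 69 pairs (chi-square over degrees of freedom at least 3.93). Replicates are separate embryos. The fit was tested on simulated data for the S226A liver, where it found nearly all changes in genes with ample reads but missed most of them in genes with few reads, the level of many members, so that a member not called may still differ. Alternatives were DESeq2 1.42.0, RLE size factors, no filter, only the libraries compared, litter as block, thinning, the stringent criteria of the study (adjusted p below 0.01, log2 fold change beyond 1, standard error below 1) and leaving out each library. Leaving out both livers with squamous transcripts, S226A lung replicate 3 for likeness, and joining DESeq2 with the stringent criteria were chosen after seeing the data. Transposable elements were not analysed here.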

Additional observations from a re-analysis of the deposited data

Results flagged for a closer look

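Dixon's criterion was applied to 78 combinations of a member and a group of 4 libraries with more than 3 counts. In 16 of them a library stood apart. The rate of about 1 in 20 by chance assumes normally distributed values, which these low counts are not. A library with reads beside 3 without any always stands apart, as for Cd3d and Cd3e in S226A lung. The 16 therefore cannot be compared with chance. The S226A lung replicate 3 was the highest of its group for 5 members, at 1.91 CPM of Cd3d, 1.86 CPM of Cd3e, 2.89 CPM of Cd3g, 7.31 CPM of Lck and 3.68 CPM of Rasgrp1. It is the library with 634 Rag1 and 13 Foxn1 counts, and the part of thymic cells was not tested. The wild-type liver replicate 3 of the S226A litters was highest for Cd3d (1.65 CPM) and lowest for Lck (1.94 CPM).

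The other libraries that stood apart were single cases. For Cd3d it was S226A liver replicate 2 (lowest, 0.323 CPM). For Cd3e they were wild-type liver replicate 4 of the Y130A litters (highest, 0.121 CPM) and wild-type brain replicate 2 of these litters (highest, 0.120 CPM), each of fewer than 10 counts. For Cd3g it was Y130A liver replicate 3 (highest, 2.52 CPM), for Rasgrp1 wild-type brain replicate 3 of the S226A litters (highest, 17.8 CPM) and for Gzmb Y130A lung replicate 3 (lowest, 4.46 CPM). For Ctsw they were wild-type liver replicate 4 of the S226A litters (highest, 0.490 CPM), S226A brain replicate 1 (lowest, 0.630 CPM) and wild-type brain replicate 1 of the Y130A litters (highest, 1.09 CPM).

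The effect on Rasgrp1 in liver differed between the mutations by -2.48 on the log2 scale (S226A minus Y130A, adjusted p = 0.0108, edgeR interaction). Ctsw lay below all wild types in every Y130A brain (log2 fold change -0.42) and above all wild types in every Y130A liver, a difference that was not tested.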

How the results depend on the processing

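Of 2304 values of a member in a comparison under an alternative, 2257 kept their side of the threshold, 35 lost a call, 12 gained one, and none changed direction where called. In S226A liver the 3 calls became 1 (Rasgrp1) when only the libraries compared were fitted, where Prf1 and Ctsw did not pass the filter on low counts, and 1 (Rasgrp1) under the stringent criteria with edgeR (2 with DESeq2, Rasgrp1 and Ctsw), and leaving out 1 library gave 3 to 4. In Y130A liver DESeq2 called 1 in place of 0, also 1 with the stringent criteria (leaving out 1 library, 0 to 1), and in S226A lung leaving out 1 library gave 0 to 1. The difference between the mutations in liver went from 1 to 0 under the stringent criteria with edgeR and stayed at 1 with DESeq2 (1 to 2 with 1 library left out), and in lung it was 0 to 1 with 1 library left out. Between the wild-type livers of the litter sets the 1 call became 0 with DESeq2, RLE size factors, no filter, thinning, the stringent criteria with either tool and without both livers with squamous transcripts (0 to 1 with 1 library left out). Between the wild-type lungs it became 2 with DESeq2 (Gzmb and Rasgrp1), which gave no adjusted p for Cd3d, Cd3e and Prf1. It became 0 there under the stringent criteria with either tool (0 to 2 with 1 library left out). The cause was not tested. With litter as replicate block the S226A liver had 3 calls and the liver difference between the mutations 1, the 5 other mutant comparisons 0, and no block in the wild-type tissues left 6, 7 and 8 calls, so the block changed no count. Leaving out 1 library gave 6 to 7, 6 to 8 and 7 to 8 calls between the wild-type tissues, the stringent criteria 5, 5 and 6, and DESeq2 and no filter 6 each between lung and brain. Genes with counts near 0 in 1 group limit what 4 libraries per group can show.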
